A study of Mus musculus with 8 samples.

Results

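In mouse embryonic fibroblasts, 26 genes listed under provisional symbols in the deposited tables had at least 2-fold more counts after interferon-beta (IFN-beta) than without it. A provisional symbol is a placeholder given to a gene model or cDNA clone before a function is known: Gm with a number, a clone name ending in Rik, or a prefix of the AA, AI, AU, AW or BC kind with a number. The tables held 24015 gene symbols, of which 3204 were provisional and 875 of those had a total of 20 or more counts. The 26 were chosen by their values. Mean CPM (counts of a gene scaled to a library total of 1000000 gene counts) after treatment had to be at least 2 times the untreated mean plus 0.05, and both treated libraries had to lie above both untreated ones. Of 7 symbols left out by name, 6 also met these terms, which gives 32 with them. By symbol, 9 are Gm models, 13 are Rik clones and 4 carry an AA, AW or BC prefix.

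The RNA came from wild-type mouse embryonic fibroblasts (connective tissue cells grown from embryos) taken at E12.5 on a C57BL/6 background, passages 15 to 18. The untreated group had 2 libraries and so did the treated group, which had been kept for 6 h in medium with IFN-beta at 100 units/mL. No RNA library is labelled as carrying the HA-tagged histone H3.3 of the wider series, and its chromatin samples were not analysed here. The labels number the replicates without saying that they are separate cultures, so spreads and p-values cover these libraries only and may be technical.

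IFN-beta binds its receptor, and the receptor-bound kinases Jak1 and Tyk2 then set off the assembly of ISGF3. This complex, which contains Irf9, binds the interferon-stimulated response element (ISRE), a DNA motif with repeated GAAA. A different motif, the gamma-activated site (GAS), is found at many interferon targets. Among the best known targets are antiviral effectors and the immunity-related GTPases (IRGs), a rodent-expanded family that attacks the vacuoles of intracellular parasites and bacteria.

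Gene counts per library were 18528685 and 24817342 untreated and 18901845 and 20714161 treated. The 10 fibroblast markers, among them the collagen genes Col1a1 and Col1a2, summed to 4924 and 5570 CPM untreated and 6074 and 5818 treated. The 9 leukocyte markers found summed to 23.6 and 18.9 CPM untreated and 20.7 and 15.98 treated, with the T cell gene Cd3e at 0 counts in all 4. Endothelial markers summed to 0.971 and 1.13 CPM untreated and to 2.96 and 1.93 treated, with Emcn at 0. Epithelial markers stayed between 0.270 and 1.09. The part of other cells in the values below was not tested. In bulk RNA, more cells that express a gene and more RNA per cell cannot be told apart.

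Together the 26 genes held 26.6 and 25.7 CPM in the untreated libraries and 312 and 311 CPM in the treated ones. A few genes carried most of this. Gm6548 held 33.6% of their treated counts, and the 5 genes with the most counts held 79.6%. CPM is not corrected for transcript length, so the order of CPM is an order of counts, not of transcript numbers. Mean treated CPM was over 10 for 6 genes, between 1 and 10 for 12 and under 1 for 8. In the untreated libraries 2 genes had 0 pooled counts, 4 had 1 to 3 and 20 had more.

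The ratio on which the genes were chosen ran from 2.12 to 241, with a median of 9.94. It was over 100 for 3 genes, all of them IRG genes by their RefSeq synonyms, and between 2 and 5 for 11. The 2 treated libraries were close to each other, with a median of 1.16 for the higher over the lower and 22 of 26 genes under 1.5. Against the nearest untreated library the margin was smaller. The lower treated over the higher untreated CPM ran from 1.43 to 414 in the 24 genes with untreated counts, and it was under 2 for 3 of them.

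**Figure D1:**
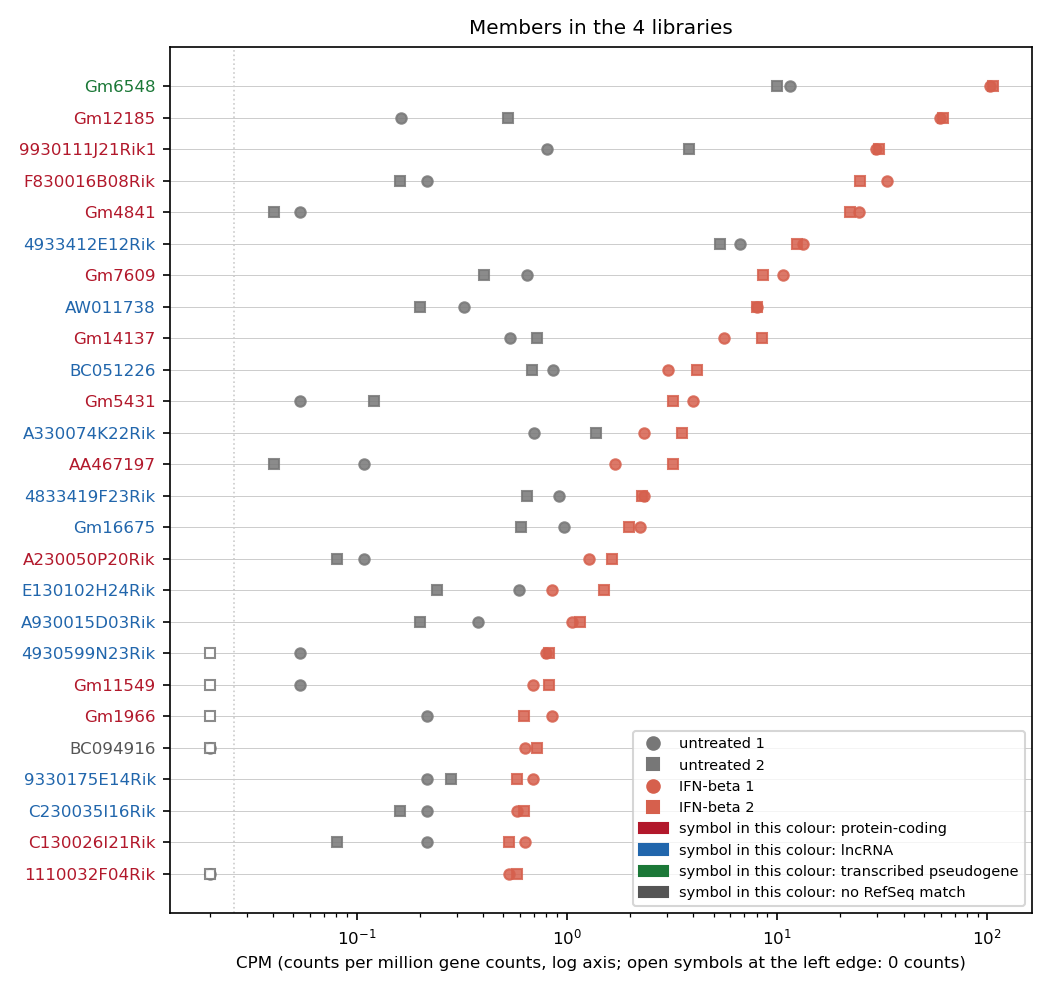
CPM of each of the 26 genes (rows, in the order of mean treated CPM) in each of the 4 libraries on a log axis, with grey for untreated and red for IFN-beta, and open symbols for 0 counts. In every row the red symbols lie to the right of the grey ones, as the choice of genes requires, and the gap narrows to 1.43-fold for E130102H24Rik.

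Just inside the limit were 4933412E12Rik and 9330175E14Rik with a ratio of 2.12, E130102H24Rik with 2.50 and Gm16675 with 2.51. Just outside were 1700019G17Rik and Gm4952 with 1.87, Gm13238 with 1.80 and 4930478L05Rik with 1.74. Those 4 had at most 14 counts in any library, and 9330175E14Rik, just inside, had at most 13.

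Meeting the terms was as frequent among provisional as among other symbols. It was met by 3.66% of the 875 provisional symbols, the 6 left-out ones included, and by 3.54% of 11942 other symbols with 20 or more counts. The same terms turned around (at least 2-fold lower, no overlap) were met by 32 provisional symbols, which is 3.66%, against 1.13% of the other symbols. Over all 12817 symbols the shares were 3.55% higher and 1.3% lower. That downward count depends on scaling: with TMM-adjusted library sizes it was 16, while the 26 became 29. The genes lower by these terms lay near the limit and had no ratio above 4.28. In edgeR's quasi-likelihood test, 21 of the 26 were called higher at a Benjamini-Hochberg adjusted p below 0.05, where 4.73% of all 12128 tested genes were and 0.495% were lower. Of the 738 tested provisional symbols 3.79% were higher and 1.08% lower, and of the 11390 other tested symbols 4.79% and 0.457%. As the genes were chosen on this contrast, that count is a description.

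**Figure D2:**
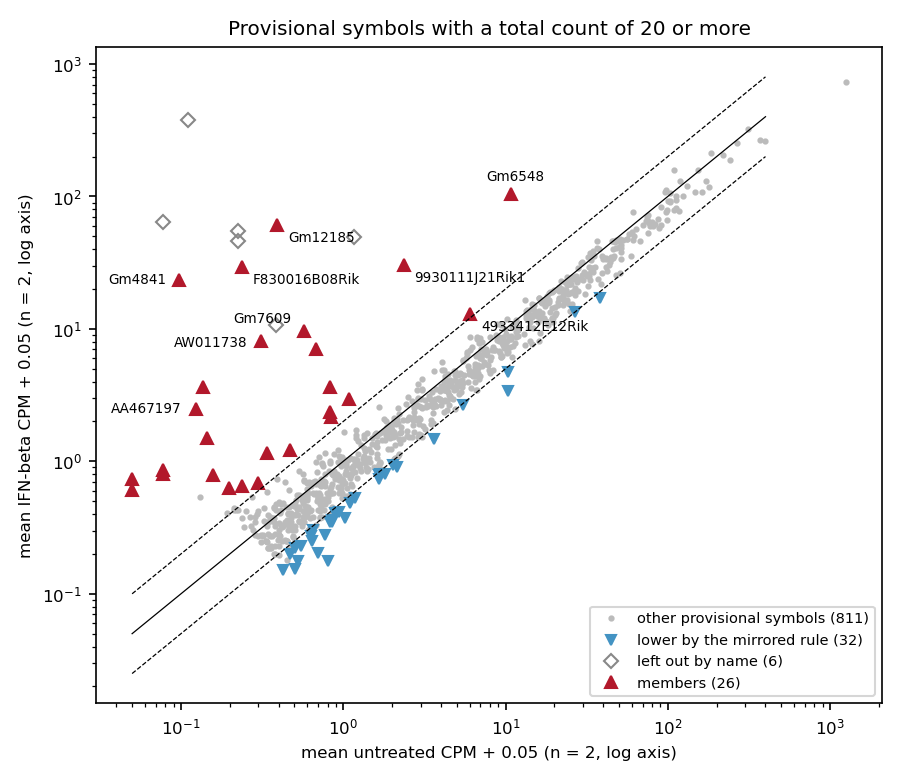
Mean CPM plus 0.05 after IFN-beta (y) against mean CPM plus 0.05 untreated (x), both on log axes, for provisional symbols with 20 or more counts. Dashed lines mark 2-fold differences; the 26 red triangles reach far above the upper line, while the 32 blue triangles keep close to the lower one.

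RefSeq (build GRCm38.p6) held 25 of the 26, with 23 found by symbol and 2 by synonym. It lists 13 as protein-coding, 11 as long noncoding RNA (lncRNA) and 1 as a transcribed pseudogene, and BC094916 was not matched. The split was like that of the other 812 provisional symbols with 20 or more counts and a RefSeq match, of which 46.9% are lncRNA and 45.3% protein-coding. The sizes of the differences were not alike. The median ratio was 12.7 in the protein-coding genes, from 2.94 to 241, and 2.69 in the lncRNAs, from 2.12 to 25.7. Of the protein-coding genes 11 of 13 were called, and of the lncRNAs 8 of 11.

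The largest ratios belonged to IRG genes that never received a family symbol in the tables: Gm4841, Gm12185, F830016B08Rik and Gm5431, in that order. A further IRG gene, 9930111J21Rik1, had a ratio of 12.7 and came 9th. RefSeq gives Gm12185 the synonym Irgb2b1, Gm5431 Irgb9b8, 9930111J21Rik1 Iigp, Gm4841 Ifgga3 and F830016B08Rik Ifgga4. Gm12185 had 0.162 and 0.524 CPM in the untreated libraries and 59.5 and 61.7 CPM in the treated ones. Both treated values were over 100 times the higher untreated one, and the mean went from 0.343 ± 0.256 to 60.6 ± 1.61 CPM (SD, n = 2). The untreated values rest on 3 and 13 counts, and without untreated replicate 2 the fitted log2 fold change was 8.62 in place of 7.49.

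Gm5431, its neighbour in the gene order, had 1 and 3 untreated counts and 75 and 66 treated counts. That is 0.0540 and 0.121 CPM against 3.97 and 3.19 CPM, with a log2 fold change of 6.01 in place of 5.33 without untreated replicate 2. 9930111J21Rik1 had 0.810 and 3.83 CPM untreated and 29.6 and 30.6 CPM treated. Its treated libraries were within 1.03-fold of each other, but its untreated ones were 4.73-fold apart, from 15 and 95 counts. Its log2 fold change was therefore 5.33 without untreated replicate 2 and 3.16 without untreated replicate 1, against 3.77 with all libraries. The row 9930111J21Rik2, named for the same clone, held 1 and 1 untreated and 3 and 13 treated counts. IRG genes have near-identical copies whose reads the counting could have split or dropped, so their levels are uncertain.

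Gm4841 had 1 count in each untreated library and 464 and 463 in the treated ones, which is 24.5 and 22.4 CPM. The ratio of pooled, depth-scaled counts was 507, with a 95% exact interval of 140.0 to 4194 for counting error alone. F830016B08Rik had 4 counts in each untreated library and 633 and 513 in the treated ones, a mean of 0.189 ± 0.0387 CPM against 29.1 ± 6.17 CPM (SD, n = 2). In both genes all treated values were far outside the untreated range. Gm4841 and F830016B08Rik stand side by side, between Gm4951 and Iigp1, an IRG gene that protects against intracellular parasites. Iigp1 itself had 3 and 3 untreated counts and 11306 and 12397 treated counts.

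Gm12185, Gm5431 and 9930111J21Rik1 form a run with Irgm1, an IRG that regulates other members of the family and autophagy, and Psme2b, a copy of the proteasome activator gene Psme2. Irgm1 went from 14.2 ± 0.598 to 489 ± 19.3 CPM (edgeR quasi-likelihood test, log2 fold change 5.25 ± 0.15 SE, adjusted p = 1e-08). Psme2b went from 2.71 ± 0.818 to 10.5 ± 2.89 CPM (edgeR log2 fold change 2.11 ± 0.28 SE, adjusted p = 0.00113). The spans of Psme2b and 9930111J21Rik1 overlap in RefSeq, and reads of overlapping genes may not have been separated. Tgtp1, the next gene in the run, was at 0 counts in all 4 libraries, and 3 counts over the pooled untreated libraries would be 0.0692 CPM. Whether the counting dropped reads of Tgtp1, as it could for near-identical IRG copies, was not tested.

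The promoter windows of these IRG genes are shown for the ISRE-like matches in 2 of them and for the likeness of 9930111J21Rik1 and Gm5431. Each window runs from 250 bases before to 50 after the RefSeq start and is printed 5′ to 3′ on the gene's strand. Capitals mark an ISRE-like match, taken as GAAA, any 2 bases and GAAA again, searched on both strands. All are on the minus strand of build GRCm38.p6, Gm12185 at chr11:48927133-48927432, 9930111J21Rik1 at chr11:48979332-48979631 and Gm5431 at chr11:48902103-48902402.
Gm12185: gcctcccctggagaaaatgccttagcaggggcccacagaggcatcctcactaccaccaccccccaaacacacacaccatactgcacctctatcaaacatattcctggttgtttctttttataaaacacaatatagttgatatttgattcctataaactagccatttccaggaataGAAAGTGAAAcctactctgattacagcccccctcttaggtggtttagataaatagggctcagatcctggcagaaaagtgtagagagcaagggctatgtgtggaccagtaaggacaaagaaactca
9930111J21Rik1: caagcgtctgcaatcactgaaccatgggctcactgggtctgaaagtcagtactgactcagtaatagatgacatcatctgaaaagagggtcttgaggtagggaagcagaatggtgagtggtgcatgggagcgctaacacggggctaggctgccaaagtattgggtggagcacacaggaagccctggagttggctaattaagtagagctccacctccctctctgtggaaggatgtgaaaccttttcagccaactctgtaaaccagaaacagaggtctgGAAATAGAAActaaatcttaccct
Gm5431: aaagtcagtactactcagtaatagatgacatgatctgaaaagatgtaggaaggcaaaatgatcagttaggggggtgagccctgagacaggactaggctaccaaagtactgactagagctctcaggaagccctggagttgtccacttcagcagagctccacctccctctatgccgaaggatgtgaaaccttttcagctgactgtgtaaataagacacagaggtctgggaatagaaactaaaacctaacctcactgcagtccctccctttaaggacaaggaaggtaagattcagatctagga
In Gm12185 the match GAAAGTGAAA lies 75 to 66 bases before the start, and in 9930111J21Rik1 the match GAAATAGAAA lies 26 to 35 bases after it. The windows of 9930111J21Rik1 and Gm5431 were identical at 205 of 249 aligned bases (82.3%), the most alike of all pairs among the 18 windows. At the place of the match, Gm5431 differs by 1 substitution, A2G, counted from 1 at the 5′ end of the match in 9930111J21Rik1, and so it has no match there.

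A further group sits beside named interferon-responsive genes. Gm6548, a transcribed pseudogene, had 11.5 and 9.99 CPM untreated and 103 and 106 CPM treated, a mean of 10.7 ± 1.06 against 105 ± 2.11 CPM (SD, n = 2). In RefSeq its span overlaps that of Eif2ak2, the double-stranded RNA sensor kinase PKR that halts translation. Eif2ak2 went from 37.3 ± 5.15 to 438 ± 11.3 CPM (edgeR log2 fold change 3.70 ± 0.15 SE, adjusted p = 1e-07). Counts of Gm6548 were 28.1% and 29.7% of those of Eif2ak2 untreated and 24% and 23.8% treated. The ratio between these separately counted genes thus moved little while the counts of both differed about 10-fold between groups, and reads of overlapping genes may not have been separated.

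AW011738, an lncRNA, had 6 and 5 untreated counts and 151 and 167 treated counts, which is 0.324 and 0.201 CPM against 7.99 and 8.06 CPM. It showed the largest ratio among the lncRNAs (25.7), and its treated libraries were within 1.01-fold of each other. Its span overlaps Perm1, a regulator of muscle metabolism, which did not pass (log2 fold change 1.07 ± 0.36 SE, adjusted p = 0.145 by edgeR). On the other side of Perm1 is Isg15, the ubiquitin-like modifier, with 8 and 3 untreated and 2047 and 2341 treated counts. Plekhn1, on the far side of AW011738, was called higher (1.34 ± 0.31 SE, adjusted p = 0.0353 by edgeR).

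Of the lncRNAs, 3 start head to head with a called gene: their promoter windows overlap on opposite strands. Such pairs were not counted for other provisional lncRNAs or for all genes. Whether they are more frequent here than elsewhere was therefore not tested. BC051226 faces Daxx, the histone H3.3 chaperone, with 267 bases between the starts. BC051226 had 0.864 and 0.685 CPM untreated and 3.02 and 4.15 CPM treated, from 16, 17, 57 and 86 counts. Daxx went from 17.0 ± 2.72 to 123 ± 5.87 CPM (edgeR log2 fold change 3.001 ± 0.15 SE, adjusted p = 5.1e-07). Counts of BC051226 were 5.74% and 3.62% of those of Daxx untreated and 2.37% and 3.49% treated.

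Gm16675 faces Irf2, a regulator that competes with Irf1 at ISRE-like sites, across 230 bases. Gm16675 had 0.971 and 0.604 CPM untreated and 2.22 and 1.98 CPM treated, from 18, 15, 42 and 41 counts. Irf2 went from 9.54 ± 1.21 to 21.6 ± 1.11 CPM (edgeR log2 fold change 1.32 ± 0.17 SE, adjusted p = 0.00092). The call of Gm16675 was lost with the DESeq2 Wald test and without either treated library.

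4930599N23Rik faces Parp12, a mono-ADP-ribosyltransferase with antiviral activity, across 124 bases. 4930599N23Rik had 1 and 0 untreated counts and 15 and 17 treated counts, a pooled ratio of 35.0 with a 95% exact interval of 5.85 to 1426. Parp12 had 286 and 313 untreated and 5228 and 5790 treated counts (edgeR log2 fold change 4.46 ± 0.16 SE, adjusted p = 3.8e-08). The lncRNA had far fewer counts than its partner, with 0.287% and 0.294% of the number of Parp12 counts in the treated libraries.

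In 1 further pair the partner was not called. 4933412E12Rik, with 124 and 133 untreated and 250 and 259 treated counts, starts 109 bases from Rab3ip, an activator of small Rab GTPases. Rab3ip did not pass (edgeR log2 fold change 0.36 ± 0.15 SE, adjusted p = 0.234). Counts of this lncRNA were 23.8% and 15.7% of those of Rab3ip untreated and 35.97% and 35.0% treated. On depth-scaled values its treated libraries were within 1.06-fold of each other, and the lower was 1.87 times the higher untreated one.

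The windows of the 3 lncRNAs with a called partner are shown because they lie between the genes of each pair. Those of Gm16675 and 4930599N23Rik also hold the partner's start, whereas that of BC051226 ends before the start of Daxx. They lie in build GRCm38.p6 at chr8:46739466-46739765 on the minus strand for Gm16675, chr6:39118223-39118522 on the plus strand for 4930599N23Rik and chr17:33909129-33909428 on the minus strand for BC051226. Capitals mark the ISRE-like match as before.
Gm16675: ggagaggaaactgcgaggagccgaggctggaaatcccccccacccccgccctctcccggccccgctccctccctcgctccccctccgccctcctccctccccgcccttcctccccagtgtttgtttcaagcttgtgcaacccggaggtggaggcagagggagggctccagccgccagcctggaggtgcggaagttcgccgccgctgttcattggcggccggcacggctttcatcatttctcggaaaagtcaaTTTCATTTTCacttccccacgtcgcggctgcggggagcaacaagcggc
4930599N23Rik: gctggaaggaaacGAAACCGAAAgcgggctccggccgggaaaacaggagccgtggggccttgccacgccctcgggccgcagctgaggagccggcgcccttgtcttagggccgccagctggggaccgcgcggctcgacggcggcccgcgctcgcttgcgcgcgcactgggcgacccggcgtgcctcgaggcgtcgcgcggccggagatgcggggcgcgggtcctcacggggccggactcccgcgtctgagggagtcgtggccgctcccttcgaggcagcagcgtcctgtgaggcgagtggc
BC051226: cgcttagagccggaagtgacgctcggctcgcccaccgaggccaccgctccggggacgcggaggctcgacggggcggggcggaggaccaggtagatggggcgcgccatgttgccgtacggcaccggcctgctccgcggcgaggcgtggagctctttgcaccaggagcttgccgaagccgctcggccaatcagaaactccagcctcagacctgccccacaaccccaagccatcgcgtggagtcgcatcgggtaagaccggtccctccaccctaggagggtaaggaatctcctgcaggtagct
In Gm16675 the match lies 2 to 11 bases after the start and reads GAAAATGAAA on the opposite strand, the strand of Irf2, whose window also holds it. A GAS-like match, TTCTCGGAA, lies 14 to 6 bases before the same start. In 4930599N23Rik the match GAAACCGAAA lies 237 to 228 bases before its start, on the far side of the Parp12 start. The BC051226 window has no match to these letters.

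Other lncRNAs lay beside called genes, and no shared promoter window was found for them. For A930015D03Rik and 4833419F23Rik there was no promoter window at all, so a shared one could not be looked for. 9330175E14Rik overlaps Nlrc5, the activator of MHC class I genes, which went from 16.6 ± 3.06 to 112 ± 4.28 CPM (edgeR log2 fold change 2.89 ± 0.16 SE, adjusted p = 8.3e-07). 9330175E14Rik had 4 and 7 untreated and 13 and 12 treated counts and was not called. Its counts were 1.498% and 1.505% of those of Nlrc5 untreated and 0.634% and 0.506% treated, so the neighbour showed the larger difference. A930015D03Rik overlaps H2-T24, a nonclassical MHC class I gene, and had 7 and 5 untreated and 20 and 24 treated counts. H2-T24 had 45 and 65 untreated and 102 and 103 treated counts (edgeR log2 fold change 1.18 ± 0.24 SE, adjusted p = 0.0153). The call of A930015D03Rik was lost with the DESeq2 Wald test and without either treated library.

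4833419F23Rik is next to Map3k8, a kinase of inflammatory signalling, and had 0.917 and 0.645 CPM untreated and 2.33 and 2.27 CPM treated. Map3k8 went from 3.26 ± 0.0485 to 7.22 ± 0.104 CPM (edgeR log2 fold change 1.29 ± 0.21 SE, adjusted p = 0.00452). Without treated replicate 1 the call of 4833419F23Rik was lost. A330074K22Rik had 0.702 and 1.37 CPM untreated and 2.33 and 3.52 CPM treated, so the closest libraries were 1.70-fold apart. Its neighbour Gse1 did not pass (0.90 ± 0.24 SE, adjusted p = 0.0700 by edgeR), and its own call was lost when only library totals were used for scaling and without treated replicate 2. E130102H24Rik, with 11 and 6 untreated and 16 and 31 treated counts, and C230035I16Rik, with 4 and 4 untreated and 11 and 13 treated counts, were not called. Neither had a called neighbour.

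Among protein-coding genes outside the IRG family, Gm7609 and C130026I21Rik adjoin each other, and C130026I21Rik is followed by Sp110, a nuclear body gene. Gm7609 had 0.648 and 0.403 CPM untreated and 10.6 and 8.54 CPM treated, from 12, 10, 201 and 177 counts. C130026I21Rik had 4, 2, 12 and 11 counts in the same order and was not called. Sp110 went from 0.0874 ± 0.0473 to 3.87 ± 0.215 CPM (edgeR log2 fold change 5.45 ± 0.45 SE, adjusted p = 2.5e-05). On the other side of Gm7609 the row A530032D15Rik, with too few counts to be considered, held 0 untreated counts and 6 in each treated library.

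Gm14137 had 0.540 and 0.725 CPM untreated and 5.61 and 8.50 CPM treated, from 10, 18, 106 and 176 counts. It overlaps Dnajc17, a J-domain protein gene that did not pass (log2 fold change 0.26 ± 0.26 SE, adjusted p = 0.647 by edgeR). Counts of Gm14137 were 11.9% and 23.1% of those of Dnajc17 untreated and 145% and 193% treated, so here the overlapping gene did not move with it.

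A230050P20Rik is listed in RefSeq as Shfl (synonym RyDEN), an antiviral protein that blocks programmed ribosomal frameshifting. It had 2 counts in each untreated library and 24 and 34 in the treated ones, which is 0.108 and 0.0806 CPM against 1.27 and 1.64 CPM. AA467197 has the synonym Nmes1, a small mitochondrial protein induced in inflammation, and its transcript hosts the microRNA miR-147. AA467197 had 2 and 1 untreated counts and 32 and 66 treated counts, a pooled ratio of 35.7 with a 95% exact interval of 11.9 to 176. Its treated libraries were 1.88-fold apart, the widest spread of the 26, and the row Mir147 was at 0 counts in all 4 libraries.

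The remaining genes had under 20 counts in every library. Gm11549, listed in RefSeq as the small membrane protein gene Smim43, had 1 and 0 untreated counts and 13 and 17 treated counts (pooled ratio 32.8, 95% exact interval 5.46 to 1339). Gm1966 had 4 and 0 untreated counts and 16 and 13 treated counts and was not called. 1110032F04Rik had 0 untreated counts and 10 and 12 treated counts, at least 8.02-fold higher if the untreated libraries together are given 3 counts. BC094916, the gene without a RefSeq match, had 0 untreated and 12 and 15 treated counts, at least 9.85-fold higher on the same terms. Values of these genes rest on few reads, and leaving out an untreated library moved the fitted fold changes of Gm11549, Gm1966 and 4930599N23Rik by over 2-fold.

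The genes next to the 26 were often called higher as well. For each of the 25 matched genes, the nearest gene with a row in the tables on each side was taken from the RefSeq gene order. Of the 31 tested neighbours outside the 26, 13 were called higher, which is 41.9%. Next to the other provisional symbols with 20 or more counts it was 55 of 1058, or 5.2%, close to the 4.73% of all tested genes. At least 1 such neighbour stood beside 14 of the 25 genes (56.0%) and beside 52 of the 812 others (6.40%). These others include the provisional symbols that were lower and, where matched, those left out by name. Beside the provisional symbols that were lower, 1 of 45 tested neighbours was higher and 4 were lower (8.89%), where 12 of 1058 (1.13%) were lower beside the other provisional symbols and none of the 31 beside the 26. Among neighbours whose span does not overlap that of any of the 26, 9 of 23 were higher, and among overlapping ones 4 of 8. Over the fits with other scalings, filters, tests or a replicate block, the count of 13 ran from 12 to 16. The lowest came with total library size, where 478 of all genes were higher, against 574 in the main fit. The highest came without a count filter, where 863 were. The count thus rose and fell with the number of all genes called. Whether the difference from the other provisional symbols held in those fits was not tested. Fits with a library left out leave a lone library in a group, so their counts are not used here.

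Promoter windows were found for 18 of the 26. The ISRE-like motif occurred in 5 of them (27.8%), against 3.99% of the 27025 genes in the promoter table. The 5 were Gm12185, 9930111J21Rik1, Gm16675, 4930599N23Rik and Gm1966. Of the 436 genes called higher that had a window, the 26 included, 19.3% held it. With the shorter GAAANNGAA, which every longer match contains, AW011738 joined to make 6 of 18, against 9.76% of all genes. Its match GAAAGTGAA lies 174 to 166 bases before the start on the opposite strand. The GAS-like motif TTCNNNGAA, read on both strands, occurred in Gm12185, Gm16675 and C230035I16Rik (16.7%), against 9.55% of all genes. A match is a run of letters, not a bound site, and the absence of one says nothing beyond this window.

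**Figure D3:**
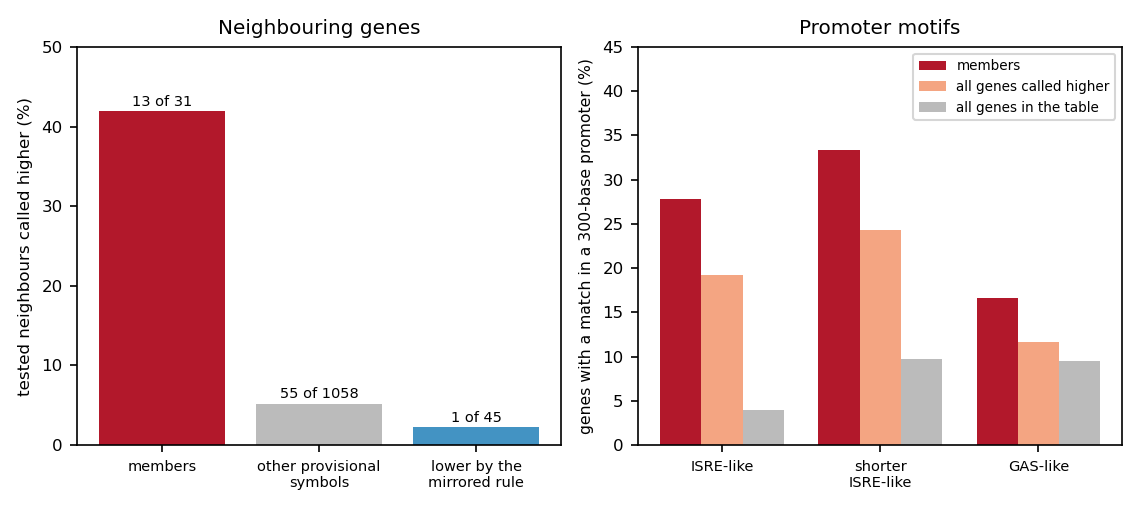
Left, percentage of tested neighbouring genes called higher next to the 26 genes, next to other provisional symbols and next to provisional symbols that were lower. Right, percentage of genes with a motif match in the 300-base promoter window; the 26 genes stand at 27.8% for the ISRE-like motif and all genes at 3.99%.

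Named genes of the same pathway were set beside these. Of 40 listed genes 39 were tested and 35 rose (edgeR, adjusted p below 0.05), with a median log2 fold change of 6.59, where the median of all tested genes was -0.02. The receptor genes Ifnar1 (-0.14) and Ifnar2 (0.22) and the kinase genes Jak1 (0.21) and Tyk2 (0.38) did not pass, and the chemokine gene Ccl5 had too few counts. The lowest p-values belonged to Ifit3, which binds viral RNA in complex with Ifit1 (log2 fold change 10.3), the chemokine gene Cxcl10 (10.8), Ifit1 (10.6) and the ISG15 protease gene Usp18 (10.4). For the 26 genes the median was 3.68, from 1.24 for 4933412E12Rik to 8.95 for Gm4841. Fitted values of genes with 0 untreated counts depend on the prior count.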

How the data were processed

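Each library came as 1 table of read counts per gene symbol, which the authors deposited unnormalized and not pooled. Per the labels' protocols, RNA was taken up in Trizol and libraries came from the TruSeq RNA kit. The tools and build named in the submitters' processing notes are TopHat2 2.0.13, HTSeq 0.7.2 and mm9. Annotation and strand setting are not given in the sources used here. Summary lines that name no gene held 57.3% to 61.3% of the records and were left out of totals and tests. CPM was computed from the total of gene rows, and ± values are SDs over 2 libraries.

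All genes were fitted with edgeR 4.0.16 (R 4.3.3), by quasi-likelihood F tests with a group term alone, TMM scaling and the default filter (minimum count 10, minimum total 15). The SE of a log2 fold change was approximated from the F statistic. All 26 genes passed the filter, which their treated counts decide. The procedure was also run on simulated data. Only genes with more untreated counts than many of the 26 were changed there, so that run does not bear on the calls of those genes. With 2 libraries a group, an exact permutation test on a gene could not reach the threshold and was not used.

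Neighbours came from the RefSeq gene order of GRCm38.p6, which differs from mm9. They served for names and order, and 23822 of 24015 symbols matched. Promoter windows are RefSeq's. Intervals are exact binomial at 95% and floors are 3 counts, both for counting error only.

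The rule for naming genes covered the most counts, the largest ratios, genes at 0 untreated counts, the 4 on each side of the limit, families, neighbours and the first pathway genes by p-value. All 26 are described here, and genes outside that rule were named after their values were seen. The genes, lists and motifs were chosen with earlier results of these data known. Alternatives were DESeq2 1.42.0 size factors and Wald test, total and upper quartile scaling, no or a stricter count filter, limma-voom (limma 3.58.1), a replicate block, each library left out, and other limits in the selection terms.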

Additional observations from a re-analysis of the deposited data

How the results depend on the processing

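The 26 genes kept the direction of their fitted change in those of the 12 alternative fits that tested them. Of the 21 called ones, 17 kept the call in every alternative that tested them. The 4 called genes that lost it are named with their values above, and the cause was not tested. Among the 17, the filter left 4930599N23Rik tested in 11 alternatives, Gm11549 and BC094916 in 10 and 1110032F04Rik in 9. A gene was chosen only if both treated libraries lay above both untreated ones. The kept direction therefore follows largely from the choice and is a description. The number chosen moved most with 0.5 in place of 0.05 added to the untreated CPM (12, all among the 26). The genes lost included 4933412E12Rik, with a total of 766 counts and a ratio of 2.12. It ran from 20 to 31 with a library left out. The count of provisional symbols lower by the reversed terms was 32, but 16 with TMM-adjusted sizes, 14 with DESeq2 size factors, 17 with a total of 50 counts, 148 at 1.5-fold, 3 at 3-fold, 2 with 0.5 added, and 32 to 69 with a library left out, 69 of them without IFN-beta replicate 2. Over all genes 574 were higher and 60 lower. Without a count filter these were 863 and 381. The lower count was 350 with total library size, 128 with upper quartile scaling and 103 with the DESeq2 Wald test. With a library left out, 470 to 1885 were higher and 24 to 1728 lower, the highest of each without untreated replicate 2 (without replicate 1 of the untreated group 227 were lower), where 1 group holds a lone library that is assumed to vary like the other group. The median log2 fold change over all genes was -0.02, and -0.16 with total library size. Deviations of same-numbered libraries from their group means had a correlation of -0.03 over genes. With 2 libraries a group this cannot show whether the replicate numbers pair them. With the replicate block 692 genes were higher and 155 lower, and 24 of the 26 were called. Leaving out an untreated library moved the fitted change of 9 of the 26 by over 1.5 times. Leaving out a treated one moved none of those still tested by that much. Gm11549 and BC094916 were not tested without IFN-beta replicate 2, nor 1110032F04Rik without either treated library. Besides the moves given above, E130102H24Rik went from 1.69 to 2.44 without untreated replicate 1. AA467197 went from 5.16 to 5.91 without untreated replicate 1 and 4.55 without replicate 2. In the same order, C130026I21Rik went from 2.15 to 2.94 and 1.53, and 4930599N23Rik from 4.93 to 7.20 and 3.87. Gm11549 went from 4.84 to 7.11 and 3.78, and Gm1966 from 3.03 to 7.06 and 1.86. E130102H24Rik, Gm1966 and C130026I21Rik, not called with all libraries, were called in 2 to 5 alternatives each, in all 3 cases without untreated replicate 1. Apart from 9930111J21Rik1, with 15 and 95 untreated counts, the genes moved in this way rest on few untreated counts. That limits the precision of their fold changes.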
